A study of Homo sapiens with 3 samples.

Results

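Clusters of C-to-U RNA editing assigned by gene symbol to pseudogenes of abundant mRNAs were examined in human cells. A cluster was a member when the first gene symbol listed for it was built from the symbol of a ribosomal protein, a translation factor or another housekeeping gene followed by P and, in most cases, a number. This rule found 59, 80 and 61 clusters among 14295, 15181 and 11367 clusters of replicates 1, 2 and 3, which is 200 of 40843 clusters and 78 of 9109 symbols. The cells were human embryonic kidney cells of genotype WT, which the sample titles and the paper call HEK293T and the cell line labels HEK293XT, a lentiviral packaging derivative of HEK293T. All 3 replicates carried a doxycycline-induced fusion of RBFOX2, a splicing factor that binds RNA, with APOBEC1, a cytidine deaminase, for 72 h. The sample labels give the treatment as transient transfection, whereas the growth protocol speaks of stable lines, and no cells without the fusion were analysed here, so the background of editing calls in such cells is not known for any locus. The replicates were 1 group, so comparisons were made between sets of clusters within a replicate.

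Processed pseudogenes arise when an mRNA is reverse transcribed and inserted back into the genome, and they therefore lack the introns of the parent gene and resemble its mRNA closely. Genes with abundant mRNAs in the germ line, above all those of ribosomal proteins and of the elongation factor EEF1A1, have left many such copies. A short read from the parent mRNA can align to a copy, and a base that differs between the copies can then be read as a mismatch, so values of near-identical copies are uncertain.

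The clusters were assigned to pseudogenes of 12 gene families on 22 chromosomes. RefSeq held all 78 symbols, 76 of them as pseudogenes, of which 5 were transcribed pseudogenes. These types do not tell processed copies from other pseudogenes, so whether each is a processed copy was not established. The other 2 symbols name protein-coding genes in RefSeq. EIF4EBP2, which encodes a protein that binds the cap-binding factor eIF4E and inhibits translation, matched the rule by its spelling only and gave 7, 9 and 4 clusters. HNRNPA1P48 is listed there under another name as a protein-coding relative of HNRNPA1, which packages nascent transcripts. Of the 200 clusters, 179 were annotated as exonic and 21 as intronic. The intronic share was 11.9%, 10.0% and 9.84% in the 3 replicates, against 2.14%, 2.30% and 1.68% of the other clusters. Another gene was listed beside the pseudogene in 24 clusters, of which 3 were exonic. All 21 intronic clusters were among these 24, so their labels do not tell which gene the reads come from.

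When overlapping clusters of the 3 replicates were merged, 128 loci remained. In all, 24 loci held clusters of all 3 replicates, 24 held clusters of a pair of replicates and 80 came from 1 replicate. In 20 of the 24 loci each cluster overlapped those of both other replicates, and in the loci of HNRNPA1P48, FTH1P16, HNRNPCP2 and SNRPEP4 some were joined only through another cluster. In each of these, the clusters of a pair of replicates shared no base, so their values and SD come in part from different C positions. The 24 loci held 1214 edited reads, 75.6% of all edited reads of the pseudogene clusters. Of these, 110, 124 and 137 in replicates 1, 2 and 3 lay at a single locus listed under both NDUFA9P1 and RBFOX2. Others lay at loci of the protein-coding EIF4EBP2 and HNRNPA1P48. The median cluster of the 24 loci had 7 edited reads. By contrast, the median cluster of a locus seen once had 2 edited reads, and these 80 loci held 13.5% of the edited reads. Of the 78 symbols, 27 had clusters in all 3 replicates, 14 in a pair and 37 in 1.

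The edit fraction is the number of edited bases over all covered C bases of a cluster, and it ranged from a mean of 0.421% to 11.95% over the 24 recurrent loci, with a median of 3.53%. The SD over replicates was under 5% of the mean at 5 of them and at least 30% of the mean at 9. Positions are given on hg19, the build named in the submitters' processing notes.

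**Figure D1:**
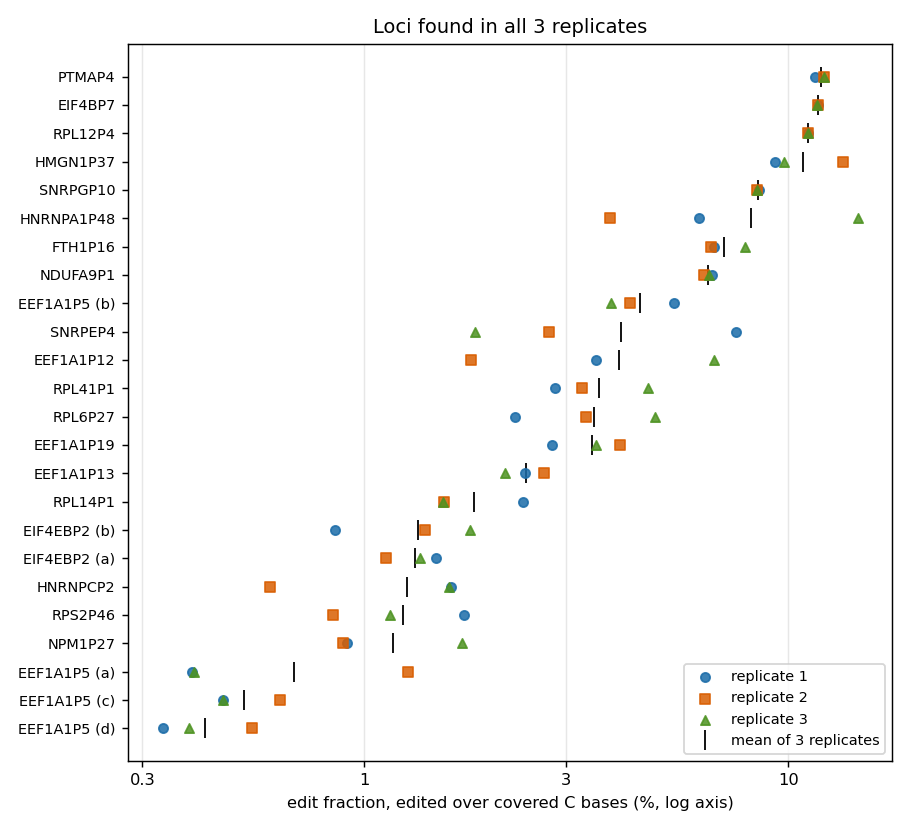
Edit fraction (%, log axis) of the 24 loci found in all 3 replicates, ordered by their mean. Each symbol is 1 replicate and the bar is the mean of 3 replicates, and letters mark several loci of 1 gene by their position. PTMAP4 was highest at 11.95% and an EEF1A1P5 locus lowest at 0.421%.

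The locus with the most edited reads was listed under NDUFA9P1, a copy of the gene of a subunit of respiratory complex I, at chr22:36234512-36234646 on the minus strand. It was annotated as intronic and RBFOX2, the gene whose protein the fusion carries, was listed with it. Whether its reads come from the sequence of the copy was not tested. Of 1301, 1677 and 874 reads, 110, 124 and 137 were edited. Its edit fraction was 6.60%, 6.32% and 6.52% (6.48% ± 0.141, SD, n = 3), a spread far below its level. The mean read depth was 1177, 1605 and 802, but the coverage per C base, the number of covered C bases divided by the C positions of the cluster, was only 91.5, 103.6 and 113. A neighbouring locus with the same gene names and intron labels, at chr22:36234377-36234436, had 9 edited reads of 1532 and 9 of 1910 in replicates 1 and 2. Its edit fractions were 0.350% and 0.536%. The parent gene NDUFA9 had 1, 2 and 2 clusters with pooled edit fractions of 0.935%, 0.595% and 1.27%, below that of the recurrent locus in each replicate. The part that transcripts of the introduced fusion have in the signal at this locus was not tested, and the 10 quantities recomputed without the clusters that also list RBFOX2 kept their direction and moved by less than 1 SD.

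Among copies of genes for RNA-binding proteins, SNRPGP10 stood out by its small spread. Its parent SNRPG encodes a protein of the Sm ring of spliceosomal RNPs. The exonic locus at chr1:205320376-205320420 had 45 of 78, 57 of 94 and 50 of 93 reads edited. The edit fraction was 8.52%, 8.46% and 8.43% (8.47% ± 0.0470, SD, n = 3). SNRPG itself had 1 cluster in replicate 2 and 1 in replicate 3, with edit fractions of 1.02% and 1.03%. At SNRPEP4, a copy of another Sm protein gene, at chr19:5576717-5576911, only 1, 2 and 1 reads were edited, and the edit fraction of 7.55%, 2.73% and 1.83% varied by several percentage points. SNRPE had 3, 1 and 3 clusters with pooled edit fractions of 0.645%, 0.845% and 2.13%.

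HNRNPCP2 is a copy of HNRNPC, which encodes a protein that binds uridine-rich nascent RNA, and its locus lay at chr2:190788333-190788437. It had 2, 4 and 4 edited reads of 25, 345 and 288, and edit fractions of 1.60%, 0.600% and 1.58%. The locus of HNRNPA1P48 at chr16:51680748-51680897 had 5 of 35, 6 of 12 and 7 of 29 reads edited. Its edit fraction was 6.17%, 3.80% and 14.6%, which gave the largest SD of the 24 loci at 5.67 percentage points. Parents were covered more deeply, HNRNPC with 11, 8 and 12 clusters and pooled edit fractions of 0.619%, 0.520% and 0.542%, and HNRNPA1 with pooled edit fractions of 0.388%, 0.491% and 0.469%.

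Copies of genes for chromatin and nuclear proteins gave 20 clusters. PTMAP4, a copy of the prothymosin alpha gene PTMA, had the highest mean edit fraction of the 24 loci. At chr12:9392583-9392627, 33 of 60, 51 of 94 and 39 of 67 reads were edited. The edit fraction was 11.6%, 12.2% and 12.1% (11.95% ± 0.326, SD, n = 3). PTMA had 3 clusters in each replicate, all of them found in all replicates, and their pooled edit fractions were 0.498%, 0.699% and 0.807%. Reads at the copy were fewer, with a mean depth of 40.2, 62.6 and 46.2 against up to 1032, 718 and 467 in the PTMA clusters.

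HMGN1P37, a copy of the gene of the nucleosome-binding protein HMGN1, was annotated as intronic together with MPP1. Its locus at chrX:154045248-154045367 had 8 of 15, 8 of 12 and 4 of 8 reads edited, and the edit fraction was 9.30%, 13.5% and 9.76% (10.8% ± 2.28, SD, n = 3). A second locus listed with the same genes and introns, at chrX:154044633-154044722, was seen in replicates 1 and 3 with 0.879% and 1.49%. HMGN1 had pooled edit fractions of 0.723%, 0.727% and 2.00%. NPM1P27, a copy of the nucleophosmin gene, had an edit fraction of 0.912%, 0.893% and 1.70% at chr5:93018905-93018994, from 1, 3 and 3 edited reads. The values of replicates 1 and 2 lie within the range of the NPM1 clusters and that of replicate 3 above it, where the highest NPM1 cluster had 0.782%. Pooled edit fractions of NPM1 were 0.768%, 0.737% and 0.658%.

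Translation factors gave 60 clusters, of which 20 were those of the protein-coding EIF4EBP2. The elongation factor EEF1A1 brings aminoacyl-tRNA to the ribosome, and its copy EEF1A1P5 on chromosome 9 gave 14 clusters and 4 recurrent loci. The locus at chr9:135895717-135895806 had an edit fraction of 5.37%, 4.23% and 3.82% (4.47% ± 0.805, SD, n = 3), with 18 of 106, 22 of 58 and 6 of 21 reads edited. At chr9:135895252-135895311 the values were 0.393%, 1.27% and 0.396%. The next 2 loci gave 0.464%, 0.632% and 0.464% at chr9:135895867-135895986 and 0.335%, 0.543% and 0.386% at chr9:135896407-135896511. In each replicate the first of these loci was above the other three, without overlap. It was also the most thinly covered in replicates 1 and 3, with a mean depth of 62.4, 41.8 and 14.9, while the locus at chr9:135896407-135896511 had 710, 432 and 309.

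Other EEF1A1 copies were covered less than the EEF1A1P5 loci at chr9:135895867-135895986 and chr9:135896407-135896511. EEF1A1P13 at chr5:14652228-14652407 had 19 of 90, 41 of 155 and 21 of 85 reads edited and an edit fraction of 2.40%, 2.66% and 2.15% (2.40% ± 0.255, SD, n = 3). At EEF1A1P19, at chr5:43495536-43495670, the edit fraction was 2.77%, 4.02% and 3.53% from 5, 6 and 5 edited reads. EEF1A1P12 at chr2:107314208-107314282 had 3.53%, 1.79% and 6.67%, from 3, 3 and 5 edited reads, so its values spread by more than their mean. EEF1A1 itself had no cluster in replicate 1, 2 clusters in replicate 2 and 3 in replicate 3, none of them found in all replicates, and pooled edit fractions of 0.603% and 0.732%.

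EIF4BP7 is a copy of EIF4B, which encodes a stimulator of the helicase that unwinds mRNA leaders. At chrX:110862966-110863010 every read was counted as edited, 8 of 8, 6 of 6 and 11 of 11. The edited bases numbered 6, 6 and 11, so in replicate 1 the 8 edited reads outnumber the edited bases of the cluster and cannot each carry one of them. The edit fraction was 11.8%, 11.8% and 11.7%. EIF4B had pooled edit fractions of 0.689%, 0.708% and 0.383%, from 4, 6 and 1 clusters. The recurrent loci of the protein-coding EIF4EBP2 at chr10:72183078-72183167 and chr10:72182073-72182192 had edit fractions of 0.855%, 1.39% and 1.78% and of 1.48%, 1.12% and 1.35%, and no more than 8.24% of their reads were edited in any replicate.

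The large ribosomal subunit was represented by the most symbols, 22, which gave 54 clusters and 39 loci, of which 4 were recurrent. RPL12P4, a copy of the RPL12 gene, lay at chr20:53691486-53691530. Its reads were edited in 33 of 34, 23 of 23 and 17 of 17 cases. The edit fraction was 11.1% in each replicate, which corresponds to 1.00 fully converted C base among the 9 C bases of the cluster. RPL12 had 1 cluster only, in replicate 1, with an edit fraction of 3.59% and a single edited read.

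RPL41P1, a copy of the gene of a very short ribosomal protein, at chr20:21736062-21736171, had 16 of 54, 17 of 28 and 16 of 36 reads edited. Its edit fraction was 2.82%, 3.26% and 4.67% (3.59% ± 0.968, SD, n = 3), against pooled edit fractions of 0.271%, 0.262% and 0.339% at RPL41. RPL6P27 at chr18:6462279-6462353 had 2.27%, 3.33% and 4.84%, from 2, 5 and 3 edited reads. RPL14P1 at chr12:63359441-63359485 had 2.37%, 1.55% and 1.54%, from 4, 3 and 2 edited reads, and RPL14 had a single cluster, in replicate 2, with 0.706%. Both are supported by few edited reads, unlike RPL12P4 and RPL41P1.

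Copies of genes for the small ribosomal subunit gave 16 symbols, 30 clusters and 22 loci, and only that of RPS2P46 at chr17:19349247-19349306 was recurrent. Its edit fraction was 1.72%, 0.843% and 1.15% with 4 of 85, 5 of 91 and 7 of 88 reads edited. FTH1P16, a copy of the gene of the ferritin heavy chain that stores iron, had 6.67%, 6.58% and 7.92% (7.06% ± 0.751, SD, n = 3) at chr11:77445656-77445745, from 3, 4 and 3 edited reads. FTH1 had pooled edit fractions of 0.394%, 0.340% and 0.467% with 135, 133 and 126 edited reads.

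The remaining families were thin. YWHAZP2, a copy of a 14-3-3 adaptor gene, had 1 of 7 reads edited in replicate 2 and 2 of 5 in replicate 3 at chr2:127315043-127315087. KRT8P39, a keratin copy listed with an exon and an intron of NUP107, had 3 of 37 reads edited in replicate 3 at chr12:69115857-69115932. HSPD1P1, a copy of a mitochondrial chaperonin gene, had 2 of 15 in replicate 2 at chr5:21884360-21884404. TPI1P1, a copy of the triosephosphate isomerase gene, had 3 of 85 in replicate 3 at chr1:77165670-77165714, and UBE2SP1, a copy of a ubiquitin-conjugating enzyme gene, had 3 of 79 in replicate 1 at chr17:15607892-15607936. None of these 5 loci was found in all replicates. Of their parents, YWHAZ had 8, 10 and 10 clusters with pooled edit fractions of 0.522%, 0.552% and 0.514%, HSPD1 had 2 in each replicate, and TPI1 and UBE2S had 1 each, in replicate 1. No cluster had as its first symbol a copy of GAPDH, of an actin or of a tubulin gene as the rule spells them.

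Pseudogene clusters had higher edit fractions than the remaining clusters. The median was 2.27%, 2.54% and 2.20% in replicates 1, 2 and 3, against 1.63%, 1.65% and 1.80% of the other clusters. The difference was 0.641 ± 0.246 percentage points (SD, n = 3), above 0 in 3 of 3 replicates. With 3 replicates an exact two-sided sign permutation test cannot go below p = 0.25, which is the value it gave, so no difference between the sets could reach 0.05. At a mean read depth of at least 50 the difference was 0.246. Median edit fractions of the other clusters fell from class to class of read depth, so the medians were also compared within classes of read depth, which gave 1.03, 0.663 and 0.727 percentage points (0.806 ± 0.194, SD, n = 3).

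Below a depth of 10 the median edit fraction of pseudogene clusters was 7.55%, 6.52% and 6.35%, against 4.88%, 5.13% and 5.08% of other clusters. In the class of 50 reads and more, the medians were 0.879%, 1.02% and 1.18% against 0.773%, 0.792% and 0.782%. Pseudogene clusters were therefore above the others in both the shallowest and the deepest class of every replicate. The difference was below 0 in replicate 1 between depths of 20 and 30 (1.60% against 1.64%) and in replicate 2 between 10 and 20 (2.26% against 2.31%), and replicate 3 had no pseudogene cluster between 30 and 40.

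**Figure D2:**
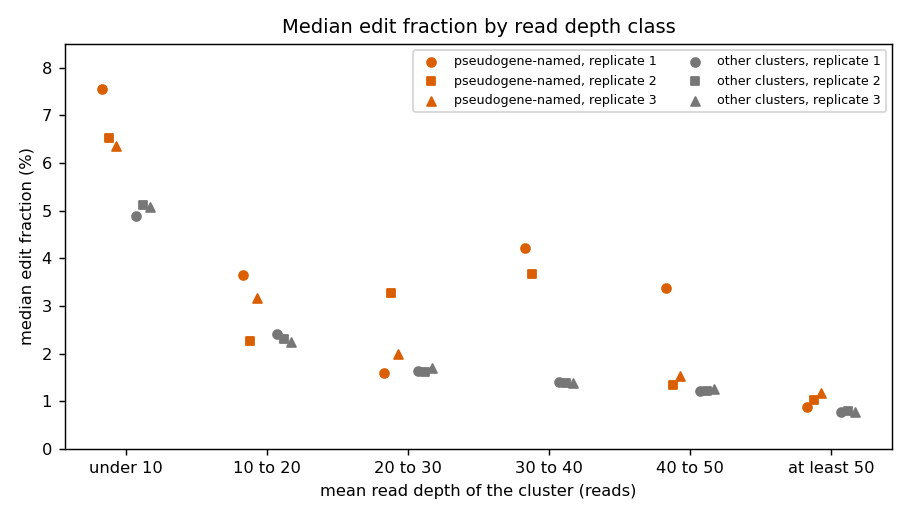
Median edit fraction (%) of clusters by class of mean read depth (reads), for clusters assigned to pseudogenes (orange) and all other clusters (grey). Each symbol is 1 replicate. Below a depth of 10 the pseudogene medians lie between 6.35% and 7.55% and those of other clusters between 4.88% and 5.13%.

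The genes from which the copies derive are the nearest comparison. Of 49 parent symbols, 40 had clusters of their own, 124, 133 and 111 in the 3 replicates. Their median edit fraction was 0.728%, 0.701% and 0.823%. The median of the pseudogene clusters, here without those of EIF4EBP2 and HNRNPA1P48, exceeded it by 1.67, 2.03 and 1.77 percentage points (1.83 ± 0.186, SD, n = 3). Parents were covered more deeply, with median depths of 322, 315 and 186 against 42.3, 26.1 and 25.1 for the pseudogene clusters with these protein-coding symbols included. When only clusters with a depth of at least 50 were compared, the difference in median edit fraction was 0.379. Taken by symbol, 30, 43 and 31 pseudogenes had a parent with clusters in the same replicate. The pooled edit fraction was higher in the pseudogene for 29, 40 and 28 of them, and the median depth was lower for 28, 41 and 26. Several copies share a parent, such as EEF1A1 or HMGN1, so these pairs are not independent. Some copies, such as NDUFA9P1, had only intronic clusters that also list another gene. The part of read depth and of reads shared between copies in this difference was not tested.

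Clusters of pseudogenes were found again more often than the rest. A cluster counted as recurrent, or found in all 3 replicates, when clusters of both other replicates shared 1 or more bases of its strand. Recurrent were 20 of 59 (33.9%, Wilson 95% interval 23.1 to 46.6), 22 of 80 (27.5%, 18.9 to 38.1) and 22 of 61 (36.1%, 25.2 to 48.6) pseudogene clusters, against 10.6%, 9.86% and 13.1% of all clusters. The difference from the other clusters was 23.4, 17.7 and 23.1 percentage points (21.4 ± 3.19, SD, n = 3; exact sign permutation p = 0.25), and 9.08 at a mean depth of at least 50. Several of these clusters share a pseudogene, and the intervals cover counting error only. The share among parent genes was 34.7%, 30.1% and 37.8%, close to that of the copies.

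Pseudogene clusters also had more edited reads than the rest, though fewer than those of parent genes. At least 11 edited reads were present in 9 of 59, 9 of 80 and 9 of 61, against 4.37%, 4.12% and 3.86% of all clusters, and a single edited read in 9, 16 and 10 of them, against 28%, 31.1% and 33% of all clusters. Among parent genes, 42 of 124, 45 of 133 and 32 of 111 clusters had at least 11 edited reads, and 13, 17 and 11 had a single one. Within classes of edited reads the share found in all replicates was higher by 11.3, 6.69 and 9.68 percentage points (9.24 ± 2.35, SD, n = 3). Over the 3 replicates, 1 of 35 pseudogene clusters with a single edited read was found in all, 17 of 61 with 3 to 5 and 25 of 27 with at least 11. With 6 to 10 edited reads the share in replicate 2 was 35.3%, below the 39.0% of the other clusters. With a single edited read it was 0% in replicates 2 and 3, below the 1.89% and 2.80% of the other clusters. At a mean depth of at least 50 the difference within these classes was 0.0809 percentage points, with a value above 0 in 1 of 3 replicates. Without replicate 1 the difference over all depths was 14.1, but a cluster then had to be found in the remaining replicates only, so the measure is not the same.

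**Figure D3:**
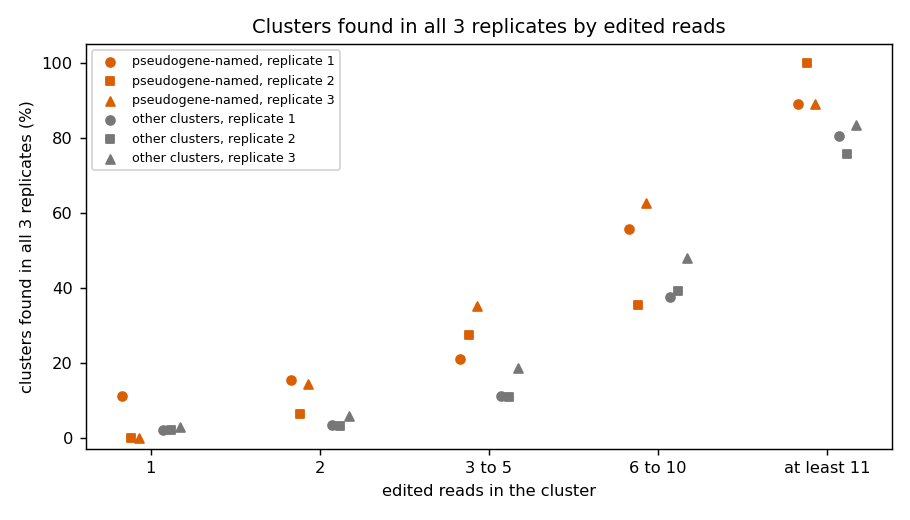
Share of clusters found in all 3 replicates (%) by number of edited reads, for clusters assigned to pseudogenes (orange) and all other clusters (grey). Each symbol is 1 replicate. The share rises from 0 to 11.1% of pseudogene clusters with 1 edited read to 88.9 to 100% of those with at least 11.

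The fraction of edited reads, which is edited reads over all reads of a cluster, had a median of 5.26%, 7.96% and 8.11% in pseudogene clusters and of 5.56%, 5.56% and 6.10% in the others. The difference was below 0 in replicate 1 and above 0 in the other two, at 1.37 ± 1.46 percentage points (SD, n = 3; exact sign permutation p = 0.5), and is within the spread between replicates. Without EIF4EBP2 and HNRNPA1P48 it was above 0 in 3 of 3 replicates, at 1.89 ± 0.725, and means in place of medians gave 8.84 ± 1.97. The upper end differed more than the median. In 2 of 59, 3 of 80 and 2 of 61 pseudogene clusters at least 90% of the reads were edited, against 0.0979%, 0.0725% and 0.088% of all clusters. These 7 clusters were the 3 each of RPL12P4 and EIF4BP7, including that with more edited reads than edited bases, and 1 of HMGN2P46, another HMGN copy, in replicate 2, where 7 of 7 reads were edited and the edit fraction was 33.3%. The difference in share from the other clusters was 3.40 ± 0.259 percentage points (SD, n = 3), above 0 in 3 of 3 replicates, and it rests on these 3 pseudogenes. All 7 had depths below 50, and with a depth of at least 50 the difference was -0.0639.

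At least 50% of the reads were edited in 5 of 59, 8 of 80 and 7 of 61 pseudogene clusters, against 0.504%, 0.52% and 0.51% of all clusters. RPL12P4, EIF4BP7, SNRPGP10, PTMAP4 and HMGN1P37 were among them in each replicate. No parent cluster reached 50% in any replicate. The edit fraction times the number of C bases gives the number of fully converted C bases that the edits would amount to. It lay between 0.9 and 1.1 in 7 of 59, 7 of 80 and 5 of 61 pseudogene clusters, against 1.27%, 1.07% and 1.24% of all clusters. For SNRPGP10 it was 0.938, 0.930 and 0.927 and for PTMAP4 0.926, 0.974 and 0.969, at 53.8% to 60.6% edited reads. For EIF4BP7 it was 1.29, 1.29 and 1.29, and for NDUFA9P1 1.91, 1.83 and 1.89 at 7.39% to 15.7% edited reads. Whether single bases that differ from the reference or between the copies have a part in these values was not tested.

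**Figure D4:**
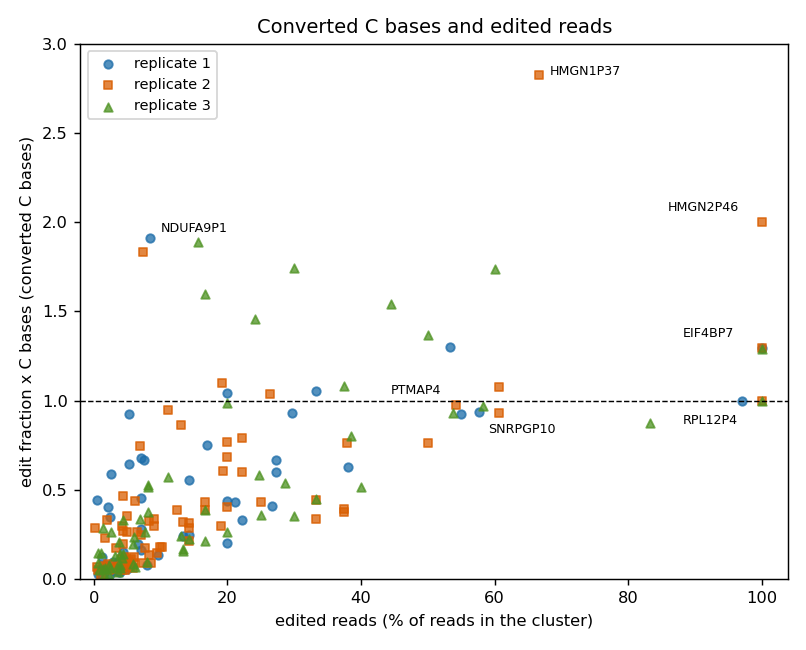
Converted C bases (edit fraction times the C bases of the cluster) against the edited reads (% of reads in the cluster) for the 200 clusters assigned to pseudogenes. Each symbol is 1 cluster, its colour and shape the replicate, and the dashed line marks 1 converted C base. RPL12P4 lies at 1.00 and 97.1 to 100% of reads in all 3 replicates.

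Coverage was uneven in part of these clusters. The coverage per C base over the mean depth had a median of 0.887, 0.970 and 0.943 in pseudogene clusters, against 0.9904, 0.996 and 0.999 in the others (difference -0.0615 ± 0.0392, SD, n = 3, below 0 in 3 of 3 replicates). The difference was -0.0394 without the clusters that also list RBFOX2 and -0.0407 without replicate 1. The ratio was under 0.5 in 14 of 59, 11 of 80 and 6 of 61 pseudogene clusters, against 4.26%, 5.06% and 3.9% of all clusters, and among parent genes in 24.2%, 16.5% and 12.6%. The NDUFA9P1 clusters were the deepest of these, with ratios of 0.0777, 0.0646 and 0.141 at the recurrent locus. RPS15AP12, a ribosomal copy with a mean depth of 80.1 in replicate 2 and 73.3 in replicate 3, had 16.2 and 7.64 reads per C base, and RPL4P4 in replicate 1 had 5.75 at a depth of 62.0. In RPS3AP6, a copy of the RPS3A gene, 1 of 404 reads was edited in replicate 2, yet the edit fraction was 14.3%, since the cluster had 7 covered C bases. An edit fraction in such clusters therefore rests on fewer reads than the depth would show.

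**Figure D5:**
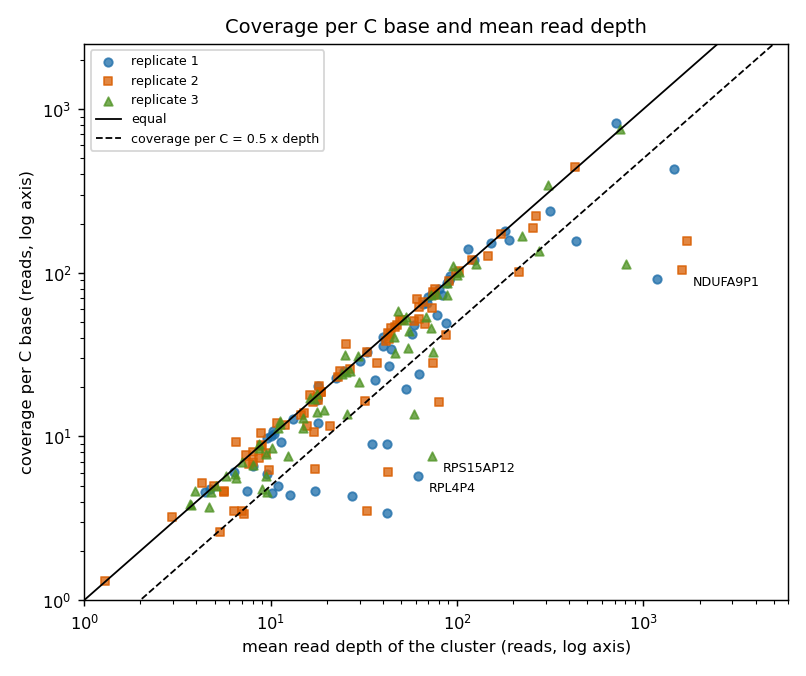
Coverage per C base (reads, log axis) against mean read depth (reads, log axis) for the 200 clusters assigned to pseudogenes, with lines at equality and at a ratio of 0.5. Each symbol is 1 cluster and its colour and shape the replicate. In replicates 1, 2 and 3, 14, 11 and 6 clusters lie below the dashed line.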

How the data were processed

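Poly(A) RNA of 3 replicates was sequenced and each file holds the scored clusters of 1 replicate, with 0 columns of other samples. Per the submitters' processing notes, reads were aligned with STAR to hg19, and versions are not given in the sources used here. Edited positions were found by the authors with SAILOR, without common SNPs, and then ran FLARE on each replicate (windows of 30 bases, adjusted p threshold of 0.1, merging distance of 15 bases). The deposited whole-number counts give, for each cluster, its C positions, the C bases covered by reads, the edited ones among these, all reads and the edited reads. The authors' edit fraction and their fraction of edited reads equal the ratios of these counts in all clusters (tolerance 1e-09). The mean depth deposited by the authors is an unscaled coverage signal, and their score lies between 0 and 1. Windows below the threshold were not analysed here, and the cluster files do not give the total reads of each library, for which the paper states 1 depth only.

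Members and gene lists were chosen with earlier results of these data known. Loci are overlapping member clusters on 1 strand. Those named are the loci found in all 3 replicates (24, below the limit of 25), the locus of each family with the most edited reads, the symbols of protein-coding genes and the parents of named copies; loci named for their coverage, for a second locus or for reads edited throughout were chosen after their values were seen. Start positions were counted from 1. RefSeq's coordinates are of another build and were used for gene types only, and no sequences are shown. The paper calls the replicates biological, and the labels do not name separate cultures; no cluster was identical in position and counts in replicates 1 and 2 or 2 and 3, and 2 were in replicates 1 and 3. Values were computed with Python 3.11.15, NumPy 2.4.6, pandas 2.3.3 and SciPy 1.17.1 and drawn with matplotlib 3.10.9. The overlap search was tested against a direct search over 500 clusters. The comparison within depth classes was tested on the clusters of replicate 1 with members drawn at random, whose edit fractions were left as they were or raised by a known amount. Differences within classes were weighted by the pseudogene clusters of each class.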

Additional observations from a re-analysis of the deposited data

How the results depend on the processing

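For 10 quantities, 77 values under other settings were computed; 52 moved by less than 1 SD of the replicates (the count of clusters by less than 1.5 times), 24 by more, and 1 changed sign. The share of clusters with at least 0.9 of their reads edited was -0.0639 percentage points from the others at a depth of at least 50. At that depth there were 25 pseudogene clusters per replicate (0.683% of clusters), and the differences were 0.246 in median edit fraction, 0.379 from parents, 9.08 in the share found in all replicates and 0.0809 within classes of edited reads. With a score of at least 0.99 the share of clusters was 0.616%, and the differences were 1.097 in edit fraction, 1.25 within depth classes, 2.80 from parents, 3.58 in the fraction of edited reads and 4.48 in the share with 0.9 of reads edited. Means in place of medians gave 1.26, 1.31, 2.65 and 8.84 for the first 4 of these differences and -0.127 in coverage per C base over depth. The limit of 0.5 of reads edited gave 9.52, and leaving out protein-coding symbols gave 3.86 at the limit of 0.9. An overlap of 50% of both clusters moved the difference within classes of edited reads to 12.5.

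Leaving out 1 replicate at a time gave 60 to 70.5 clusters per replicate, shares of 0.470% to 0.532%, differences of 0.518 to 0.764 in median edit fraction, 0.695 to 0.877 within depth classes, 23.5 to 27.5 in the share found in the remaining replicates, 0.857 to 2.21 in the fraction of edited reads, 1.72 to 1.90 from parents, 3.26 to 3.50 in the share with 0.9 of reads edited, -0.0797 to -0.0407 in coverage ratio and 10.3 to 14.1 within classes of edited reads. The highest was without replicate 1, as was the 2.21 above; the 0.857 was without replicate 2. The settings below, the removal of clusters that also list RBFOX2 and the last 2 of these quantities were chosen after seeing the data. Counting a cluster by any listed symbol gave a share of 0.635%, 1.56 from parents and 2.61 at 0.9 of reads edited; only exonic clusters that list the pseudogene alone gave 3.88 for the last. The cause of these shifts was not tested. Each difference was taken within a replicate, so the sets are paired by replicate throughout. Where a cluster holds 1 edited read, as 35 pseudogene clusters do, its edit fraction rests on that read.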

Other observations

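Counting clusters by any listed symbol gave 84, 100 and 75 pseudogene clusters with 96 symbols in the 3 replicates.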
